A study of Mus musculus with 14 samples.

Results

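The genes described here code for the enzymes that remove superoxide and peroxides: the superoxide dismutases Sod1, Sod2 and Sod3, catalase (Cat), the glutathione peroxidases Gpx1, Gpx3 and Gpx4, and the peroxiredoxins Prdx3, Prdx5 and Prdx6. They were chosen by symbol, as 10 of the 24421 genes in a table of kidney read counts, and all 10 had enough counts to be tested. The table holds 14 libraries of kidney mRNA from male C57BL/6J mice. The series title presents protein nanocages, hollow protein shells, as a way to reach the proximal tubule through the glomerular filter. The injected materials are named Dps and MnDps in the labels, which explain neither name. The groups were MnDps at 24 h (2 libraries), Dps at 24 h (3 libraries), MnDps at 4 h (3 libraries), Dps at 4 h (3 libraries) and vehicle control (3 libraries). Each protein was given intravenously at 18 mg/kg, and the labels give no time for the controls. No genotype other than the strain, and no age, is stated. The labels do not say whether libraries of a group came from separate mice, so p-values here measure only the spread between these libraries.

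Superoxide is a by-product of mitochondrial respiration and of several oxidases. Dismutases turn it into hydrogen peroxide, which catalase splits in peroxisomes and which peroxidases reduce at the expense of glutathione or thioredoxin. The proximal tubule is rich in mitochondria and peroxisomes, and it is the main source of the secreted glutathione peroxidase of blood plasma.

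Library totals ran from 15097093 to 42074942 counts, and 3 libraries exceeded 30000000 counts (Dps at 4 h replicates 1 and 2, control replicate 3). The marker genes of the proximal tubule were high in every library, with a summed level of 51912 to 59472 counts per 1000000 counts of the scaled library (CPM) after MnDps at 24 h, 56265 to 69137 after Dps at 24 h, 61260 to 73453 after MnDps at 4 h, 49051 to 54295 after Dps at 4 h and 56130 to 58202 in control. Kap alone made up 37969 of a mean sum of 55692 CPM after MnDps at 24 h, and 37959 of 57261 CPM in control. The sum therefore says little about the other markers. Of the 10 proximal tubule markers, 1 was called higher and 6 lower after MnDps at 4 h, against 2 called lower after Dps at 4 h. Of all genes tested, 22.9% were higher and 22.7% lower after MnDps at 4 h, and 8.33% higher and 6.27% lower after Dps at 4 h. The marker counts are without the length correction described below. The part of these markers' cells in the values below was not tested. Fold changes followed transcript length across all genes. For MnDps at 4 h against control, the median log2 fold change was 0.34 among the shortest 20% of transcripts (up to 1642 bases) and -0.34 among the longest 20% (from 4836 bases). Over 14759 genes, which are not independent replicates, Spearman's rho with length was -0.35 for MnDps at 24 h, -0.53 for Dps at 24 h, -0.47 for MnDps at 4 h and 0.19 for Dps at 4 h, each against the same control libraries. Of the 10 genes, 6 have transcripts among the shortest 20%, 1 (Sod2) among the longest 20% and 3 between. Values are therefore given as tested and, for many, also with the length and GC trend of each library taken out. That form is called length-corrected below, and a value given without mention of the correction is as tested. The source of this trend was not tested.

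**Figure D1:**
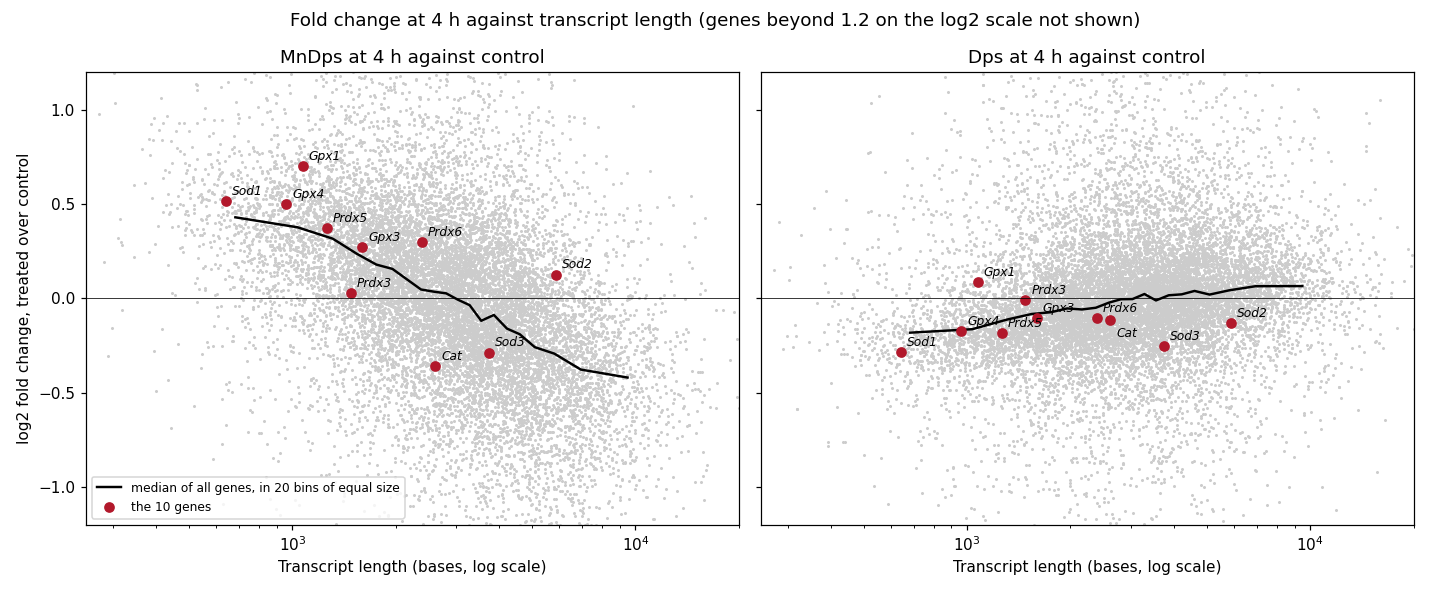
log2 fold change against control (vertical axis) by transcript length in bases (log scale) for MnDps at 4 h (left) and Dps at 4 h (right); grey points are genes, the black line is their median in 20 length bins, and red points are the 10 genes. In the MnDps panel the black line falls with length, and Sod1, Gpx1 and Gpx4 lie on the short, high side; 935 genes of the MnDps panel and 683 of the Dps panel lie beyond 1.2 and are not shown.

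Per kilobase of transcript, a scale that lets genes be compared, the order of levels was Gpx3, Gpx1, Prdx5, Sod1, Gpx4, Cat, Prdx3, Sod3, Prdx6 and Sod2. This order rests on the length of 1 principal transcript per gene, and which transcripts the kidney uses was not tested. Sod2, divided by 5861 bases, had a median of 355 CPM, above Prdx6 (287 CPM) and Prdx3 (244 CPM). Gpx3 averaged 14301 ± 1781 CPM per kb (SD over 14 libraries), and the next gene, Gpx1, averaged 2229 ± 450 CPM per kb. Gpx3 alone took 1.95 to 2.73% of a library's counts. Prdx5 averaged 1428 ± 243 CPM per kb, Sod1 1171 ± 257, Gpx4 680 ± 133 and Cat 415 ± 45.2. The lowest were Prdx3 at 164 ± 8.66 CPM per kb, Sod3 at 141 ± 17.0, Prdx6 at 121 ± 13.98 and Sod2 at 59.9 ± 4.89. The order held in 14 of 14 libraries for each neighbouring pair except Prdx3 over Sod3 (13 libraries) and Sod3 over Prdx6 (11 libraries), so these neighbours are not separated beyond their spread. Within a gene, the highest library was 2.14 times the lowest for Sod1, 2.06 times for Gpx4 and 1.95 times for Gpx1, but 1.195 times for Prdx3.

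**Figure D2:**
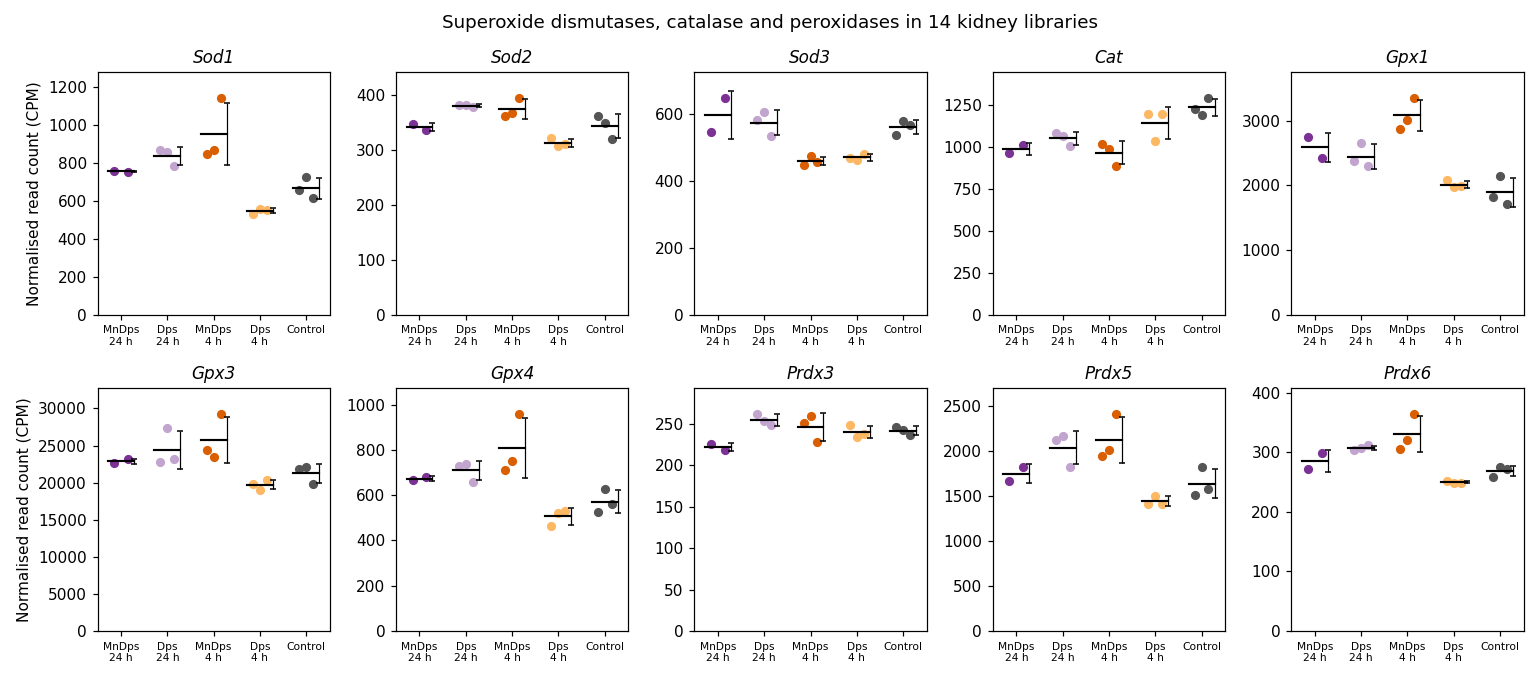
CPM of each of the 10 genes (a panel each, axis from 0) in 14 libraries; each point is a library, the horizontal bar is the group mean and the vertical bar its SD. Sod1, Gpx1, Gpx4, Prdx5 and Prdx6 are highest in MnDps at 4 h, and Cat is highest in control.

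Against control, MnDps at 4 h had the most changes: 6 of the 10 genes were higher (Sod1, Gpx1, Gpx3, Gpx4, Prdx5 and Prdx6) and 2 lower (Sod3 and Cat) in edgeR's quasi-likelihood test, at a Benjamini-Hochberg adjusted p under 0.05 over all genes. Of all 14854 genes tested, 22.9% were higher and 22.7% lower in that comparison, and the median log2 fold change was 0.29 over the 10 genes and 0.005 over all genes. Length-corrected, 3 were higher (Sod2, Gpx1 and Prdx6) and 3 lower (Sod3, Cat and Prdx3), where 15.9% of all genes were higher and 21.8% lower. The median log2 fold change was then -0.037 over the 10 genes and -0.043 over all genes. For Dps at 4 h, 1 gene was lower (Sod3; background 6.27% lower; 2 by DESeq2 and 2 by limma voom) and none was higher (background 8.33%); none was higher at an unadjusted p under 0.05, by DESeq2 or by limma voom either. Length-corrected, 4 were lower after Dps at 4 h (Sod1, Sod3, Gpx4 and Prdx5; background 17.5%), where 8.25% of all genes were higher.

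At 24 h, MnDps had 1 gene higher (Gpx1; background 4.93%) and 1 lower (Cat; background 8.39%). Dps at 24 h had 4 higher (Sod1, Gpx1, Gpx4 and Prdx5; background 9.64%) and 1 lower (Cat; background 10.4%) by edgeR, with 5 higher by DESeq2 and 7 by limma voom. Length-corrected, Cat alone stayed called after MnDps (background 1.95% higher and 5.2% lower), and after Dps Sod2 was called higher (background 3.9% higher and 4.95% lower) while none of the 5 was called. With the 3 deepest libraries left out, which leaves 1 Dps library at 4 h and 2 controls, 5 genes were higher (all but Gpx3) and 2 lower after MnDps at 4 h, where 14.5% of all genes were higher and 14.6% lower. The calls of the other 3 groups were lost in that fit, which called 2.81% of all genes for MnDps at 24 h, 2.3% for Dps at 24 h and 3.56% for Dps at 4 h. All 4 comparisons share the control libraries, so their values are not independent of each other. In bulk tissue, fewer cells of a type and less RNA per cell cannot be told apart.

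**Figure D3:**
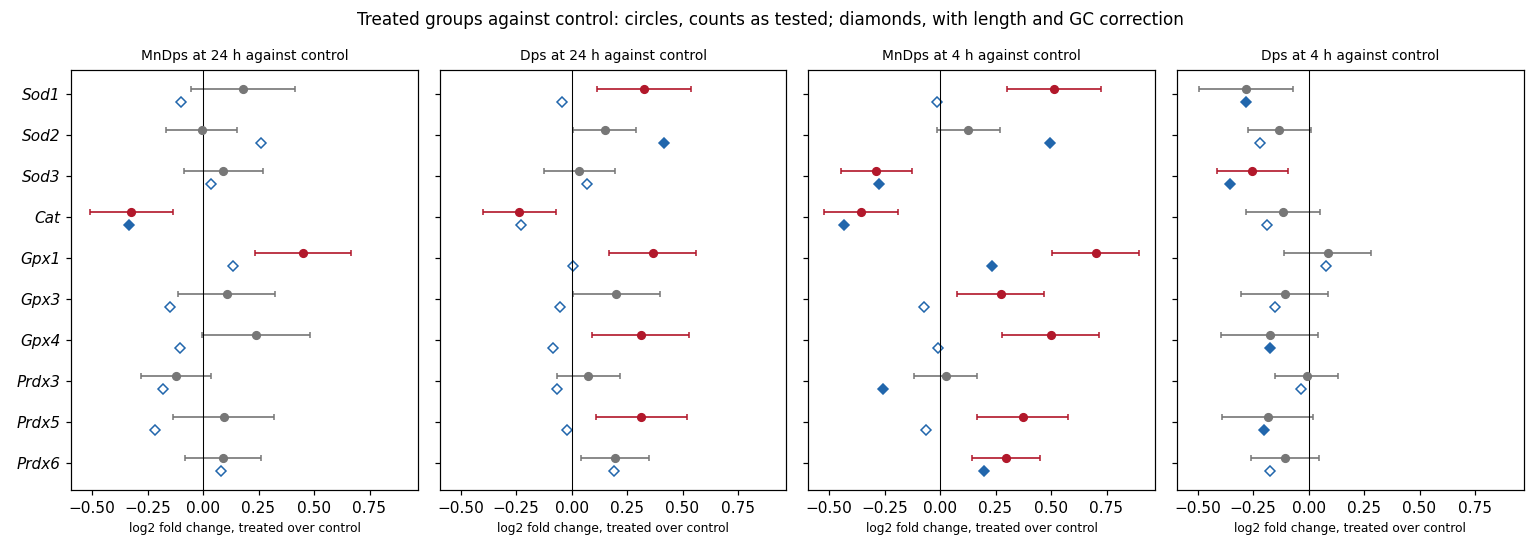
log2 fold change over control (horizontal axis) of the 10 genes in 4 treated groups; circles with 95% intervals are the values as tested, red where called, and diamonds are length-corrected values, filled where called. Cat lies left of 0 in every panel, and Gpx1 at 24 h and 4 h after MnDps lies at 0.45 and 0.70.

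Sod1, the copper and zinc dismutase of the cytosol (mm10 16:90220754-90226329, + strand, principal transcript 641 bases), had 755 and 752 CPM after MnDps at 24 h. It had 867, 858 and 780 CPM after Dps at 24 h, 848, 865 and 1141 CPM after MnDps at 4 h, and 532, 556 and 553 CPM after Dps at 4 h, against 657, 725 and 616 CPM in control. Every library of 3 treated groups lay above every control library, and the Dps 4 h libraries all lay below them. After MnDps at 4 h Sod1 rose by 0.51 ± 0.10 (log2, SE; adjusted p = 0.000733), but its length-corrected value was -0.01 (adjusted p = 0.863). With Dps at 24 h it rose by 0.33 ± 0.10 (adjusted p = 0.0313), and the length-corrected value was -0.04. Sod1 missed the threshold at 24 h when replicate 1 (0.29) or replicate 2 (0.30) of Dps, or control replicate 1 (0.31) or 3 (0.27), was left out. After Dps at 4 h the difference was -0.28 in both forms, with an adjusted p of 0.0682 as tested and 0.000839 length-corrected. For MnDps at 24 h it was 0.18 with a 95% interval of -0.06 to 0.41.

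Sod2, the manganese dismutase of mitochondria (17:13006846-13040063, + strand, 5861 bases), varied little. It had 347 and 337 CPM after MnDps at 24 h, 382, 381 and 378 after Dps at 24 h, 361, 368 and 395 after MnDps at 4 h, and 321, 307 and 311 after Dps at 4 h, against 361, 349 and 320 CPM in control. The Dps 24 h and MnDps 4 h libraries lay wholly above control, and the other groups overlapped it. Without the correction edgeR called no difference from control: it was 0.15 for Dps at 24 h (95% interval 0.0068 to 0.29; adjusted p = 0.125) and 0.13 for MnDps at 4 h (-0.02 to 0.27). By limma voom the Dps 24 h difference was called (0.17, adjusted p = 0.0439). Sod2 is the only gene of the 10 among the longest 20% of transcripts, and its length-corrected log2 fold change was 0.49 after MnDps at 4 h (adjusted p = 0.000842) and 0.42 after Dps at 24 h (adjusted p = 0.0145). Those values rest on the 5861-base transcript; which transcript the kidney uses was not tested.

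Sod3, the secreted dismutase of the extracellular space (5:52363791-52371418, + strand, 3738 bases), was lower at 4 h with both proteins. It had 548 and 649 CPM after MnDps at 24 h, 584, 606 and 534 after Dps at 24 h, 449, 475 and 456 after MnDps at 4 h, and 470, 462 and 481 after Dps at 4 h, against 538, 578 and 568 CPM in control. All 6 libraries at 4 h lay below every control library, while the 24 h groups overlapped it. The fall was -0.29 ± 0.08 after MnDps at 4 h (adjusted p = 0.00584; length-corrected -0.27) and -0.25 ± 0.08 after Dps at 4 h (adjusted p = 0.0325; length-corrected -0.35). The MnDps call held under 16 of 16 alternatives; the Dps call held under 8 of 16 and was lost without any Dps 4 h library (-0.25 to -0.23) or without control replicate 2 (-0.24) or 3 (-0.25). The summed level of 4 vascular endothelial markers was also lower at 4 h, at 161 to 209 CPM after MnDps and 148 to 199 CPM after Dps, against 269 to 302 CPM in control. Of the 4, 3 were called lower after each protein, without the length correction. Of all genes tested, 22.7% were called lower after MnDps at 4 h and 6.27% after Dps at 4 h. The summed level of 4 vascular smooth muscle markers was 88.1 to 118 CPM after MnDps and 71.0 to 108 CPM after Dps, against 90.3 to 92.4 CPM in control, with none of the 4 called. The part of either cell type in the Sod3 values was not tested.

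Cat, the catalase of peroxisomes (2:103453849-103485160, - strand, 2613 bases), was the member that lay below control most often. It had 966 and 1014 CPM after MnDps at 24 h, 1081, 1068.5 and 1005 after Dps at 24 h, 1021, 989 and 888 after MnDps at 4 h, and 1200.2, 1034 and 1194.5 after Dps at 4 h, against 1227, 1193 and 1293.5 CPM in control. In 3 treated groups every library was below every control library, and the Dps 4 h group overlapped it. Cat fell by 0.32 ± 0.09 on the log2 scale after MnDps at 24 h (adjusted p = 0.0261), by 0.24 ± 0.08 after Dps at 24 h (adjusted p = 0.0437) and by 0.36 ± 0.08 after MnDps at 4 h (adjusted p = 0.00171). The MnDps 4 h fall was called under 16 of 16 alternatives, with a length-corrected value of -0.43. At 24 h the MnDps call was lost without MnDps 24 h replicate 1 (-0.29) or 2 (-0.36) or control replicate 3 (-0.29), and the Dps call without any Dps 24 h library (-0.27 to -0.22) or control replicate 1 (-0.25) or 3 (-0.20). After Dps at 4 h the difference was -0.12 with a 95% interval of -0.28 to 0.05.

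Promoter sequence is shown for Sod1, whose level varied most across libraries, and for Cat, which lay below control in every treated group mean. The bases are those of RefSeq's promoter table (GRCm38.p6, the build of mm10) that precede the annotated gene start, 242 bases for Sod1 (16:90220512-90220753, + strand) and 243 for Cat (2:103485161-103485403, - strand). Capitals mark 2 motifs, searched on both strands: TGACNNNGC, the core of the antioxidant response element, and GGG followed by 5 bases of any kind and CC, a loose form of the NF-kB motif.
Sod1: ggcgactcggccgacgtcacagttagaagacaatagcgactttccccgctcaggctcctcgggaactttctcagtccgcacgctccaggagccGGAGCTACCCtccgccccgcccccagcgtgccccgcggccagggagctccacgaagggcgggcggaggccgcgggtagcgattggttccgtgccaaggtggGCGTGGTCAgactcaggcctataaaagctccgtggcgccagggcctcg
Cat: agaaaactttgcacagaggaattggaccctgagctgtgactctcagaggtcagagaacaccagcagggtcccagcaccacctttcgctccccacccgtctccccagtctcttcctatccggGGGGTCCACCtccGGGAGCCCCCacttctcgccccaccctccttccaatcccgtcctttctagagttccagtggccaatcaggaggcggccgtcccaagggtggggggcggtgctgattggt
Sod1 holds 1 match of each motif, and Cat holds 2 of the NF-kB motif. The table has 11 promoters for 8 of the members. TGACNNNGC was found in 1 of these 11, that of Sod1, and in 10.161% of all 32851 promoters of 250 bases. The NF-kB motif was found in 10 of the 11, missing only from 1 of those of Gpx4, and in 45.801% of all. These counts and shares are over the full 250 bases, which for some promoters lie inside the annotated gene. The promoters of Sod2 and Gpx3, and all but 1 of those of Gpx4, hold 0 bases before the gene start. Before the gene start, only those of Sod1, Cat, Prdx3 and Prdx5 held an NF-kB match. No share of all promoters was taken for those bases alone. A match is only these letters in the bases searched.

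Gpx1, the glutathione peroxidase of the cytosol (9:108338903-108340343, + strand, 1072 bases), showed the largest rise over control of the 10 before the length correction. It had 2748 and 2426 CPM after MnDps at 24 h, 2372, 2658.5 and 2292 after Dps at 24 h, 2876, 3012 and 3349 after MnDps at 4 h, and 2077.5, 1969.5 and 1984 after Dps at 4 h, against 1821, 2145 and 1718 CPM in control. All but the Dps 4 h group lay wholly above control. The MnDps 4 h rise was 0.70 ± 0.09 on the log2 scale (1.63-fold, adjusted p = 3.34e-05); length-corrected it was 0.23 (adjusted p = 0.0167), and it was called under 16 of 16 alternatives. At 24 h the rise was 0.45 ± 0.10 after MnDps (adjusted p = 0.0115; length-corrected 0.14, adjusted p = 0.307) and 0.37 ± 0.09 after Dps (adjusted p = 0.0135; length-corrected 0.01). The MnDps 24 h call was lost without its replicate 1 (0.35) or control replicate 3 (0.38), and the Dps 24 h call without its replicate 2 (0.29), control replicate 1 (0.33) or control replicate 3 (0.30). After Dps at 4 h the difference was 0.09 with a 95% interval of -0.11 to 0.28.

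Gpx3, the secreted plasma form (11:54902453-54910377, + strand, 1594 bases), had 22617 and 23127 CPM after MnDps at 24 h, 22751, 27388 and 23204 after Dps at 24 h, 24357, 23481 and 29230 after MnDps at 4 h, and 19797, 19060 and 20359 after Dps at 4 h, against 21855, 22081 and 19829 CPM in control. Replicate 3 of MnDps at 4 h and replicate 2 of Dps at 24 h were the highest. Its MnDps 4 h rise was 0.27 ± 0.09 (adjusted p = 0.0241), was -0.07 length-corrected and was called under 7 of 16 alternatives; it was lost without MnDps 4 h replicate 3 (0.17), control replicate 1 (0.28) or control replicate 3 (0.23). Both 24 h groups also lay wholly above control. For Dps at 24 h the difference was 0.20 (95% interval 0.01 to 0.40), and edgeR's quasi-likelihood test did not call it (adjusted p = 0.131), whereas limma voom did (0.25, adjusted p = 0.0285). The 95% interval was -0.11 to 0.32 for MnDps at 24 h and -0.30 to 0.09 for Dps at 4 h, neither of them called.

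Gpx4, which reduces lipid peroxides in membranes (10:80047166-80056439, + strand, 959 bases), had 665 and 682 CPM after MnDps at 24 h, 728, 739 and 660.2 after Dps at 24 h, 710.4, 752 and 958 after MnDps at 4 h, and 465, 523 and 531 after Dps at 4 h, against 524, 627 and 562 CPM in control. In Gpx4, 3 treated groups lay wholly above control, and the Dps 4 h group overlapped it. The MnDps 4 h rise was 0.50 ± 0.10 (adjusted p = 0.00119), and its length-corrected value was -0.01 (adjusted p = 0.889). The Dps 24 h rise was 0.31 ± 0.10 (adjusted p = 0.0433; length-corrected -0.08), and it was lost without any Dps 24 h library (0.27 to 0.35) or without control replicate 1 (0.25) or 3 (0.30). Dps at 4 h differed by -0.17 both as tested (adjusted p = 0.275) and length-corrected (adjusted p = 0.0269).

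Among the peroxiredoxins, Prdx3, which works in mitochondria (19:60864051-60874556, - strand, 1478 bases), was the flattest of the 10. It had 225 and 219 CPM after MnDps at 24 h, 261, 253 and 248 after Dps at 24 h, 251, 259 and 227 after MnDps at 4 h, and 248, 234 and 237 after Dps at 4 h, against 246, 242 and 236 CPM in control. The MnDps 24 h libraries lay wholly below control and the Dps 24 h libraries wholly above it, but edgeR called no difference from control without the correction (95% intervals -0.28 to 0.04 and -0.07 to 0.22). The log2 difference for MnDps at 4 h was 0.03 with a 95% interval of -0.12 to 0.17, and -0.26 length-corrected (adjusted p = 0.0087).

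Prdx5, found in mitochondria, peroxisomes and the cytosol (19:6906697-6910106, - strand, 1262 bases), had 1673 and 1823.5 CPM after MnDps at 24 h, 2126, 2164 and 1824 after Dps at 24 h, 1947, 2014 and 2412 after MnDps at 4 h, and 1410.3, 1505 and 1412 after Dps at 4 h, against 1515, 1826 and 1579 CPM in control. Both 24 h groups overlapped control, while at 4 h the MnDps libraries lay wholly above it and the Dps libraries wholly below it. The MnDps 4 h rise was 0.37 ± 0.10 (adjusted p = 0.00532; length-corrected -0.06) and the Dps 24 h rise was 0.31 ± 0.10 (adjusted p = 0.0324; length-corrected -0.02). Dps at 4 h differed by -0.18 as tested (adjusted p = 0.213) and by -0.20 length-corrected (adjusted p = 0.0202). At 24 h Prdx5 missed the threshold when replicate 1 (0.27) or replicate 2 (0.26) of Dps, or control replicate 1 (0.25) or 3 (0.29), was left out. Prdx5 shares 409 exon bases with Trmt112 on the opposite strand, and no source used here gives the strand setting of the counting; its reads and those of Trmt112 may therefore not be told apart.

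Prdx6, which draws on glutathione and also acts on phospholipids (1:161240112-161251219, - strand, 2387 bases), had 272 and 299 CPM after MnDps at 24 h, 304, 307 and 311 after Dps at 24 h, 305, 321 and 364 after MnDps at 4 h, and 251, 248 and 249 after Dps at 4 h, against 259, 275 and 271 CPM in control. The Dps 24 h and MnDps 4 h libraries lay wholly above control and the Dps 4 h libraries wholly below it. At 24 h the Dps difference was 0.20 (95% interval 0.04 to 0.35; edgeR adjusted p = 0.0651), which DESeq2 (adjusted p = 0.0333) and limma voom (adjusted p = 0.0254) called. Prdx6 rose by 0.30 ± 0.07 after MnDps at 4 h (adjusted p = 0.00361) and stayed called length-corrected at 0.20 (adjusted p = 0.0322). With Dps at 4 h the difference was -0.11 with a 95% interval of -0.26 to 0.05.

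Setting MnDps against Dps at the same dose and time separated the proteins at 4 h. Of the 10 genes, 7 were higher after MnDps than after Dps at 4 h (background 20.8%) and 1 was lower (Cat; background 20.7%); Prdx3 (95% interval -0.11 to 0.18) and Sod3 (-0.19 to 0.13) were not called. The difference was 0.80 ± 0.10 on the log2 scale for Sod1 (adjusted p = 7.12e-05), 0.67 ± 0.10 for Gpx4 (adjusted p = 0.000156), 0.62 ± 0.09 for Gpx1 (adjusted p = 0.000136) and 0.56 ± 0.10 for Prdx5 (adjusted p = 0.000339). It was 0.40 for Prdx6, 0.38 for Gpx3, 0.26 for Sod2 and -0.24 for Cat.

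Length-corrected, 4 genes were higher after MnDps than after Dps at 4 h (background 13.4%) and 2 lower (background 8.75%). Sod1 then differed by 0.27 (adjusted p = 0.00137), Sod2 by 0.71 (adjusted p = 0.00021), Gpx4 by 0.16 (adjusted p = 0.0398) and Prdx6 by 0.37 (adjusted p = 0.00136), while Cat differed by -0.24 and Prdx3 by -0.23. Gpx1 (0.15), Gpx3 (0.08) and Prdx5 (0.14) were no longer called. Sod1, Gpx4 and Prdx6 were called under 16 of 16 alternatives. The Cat difference was lost without Dps 4 h replicate 1 (-0.22) or 3 (-0.22). Spearman's rho between the fold change and length was -0.65 across genes in this comparison. Of the 3 Dps 4 h libraries, 2 were among the deepest; with the 3 deepest libraries left out, 5 of the 10 were called higher (background 9.53% higher and 8.74% lower), while Sod2, Cat and Gpx3 were not called, at 0.27, -0.30 and 0.34.

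At 24 h, none of the 10 was called between MnDps and Dps by edgeR's quasi-likelihood test, DESeq2 or limma voom, and 1 (Prdx3, -0.20, 95% interval -0.36 to -0.04) had an unadjusted p under 0.05. Over all genes, 0.148% were called higher and 0.666% lower (0.121% and 0.835% length-corrected, with none of the 10 called). The other intervals ran from -0.45 to 0.01 for Prdx5, -0.38 to 0.09 for Sod1 and -0.13 to 0.30 for Gpx1.

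**Figure D4:**
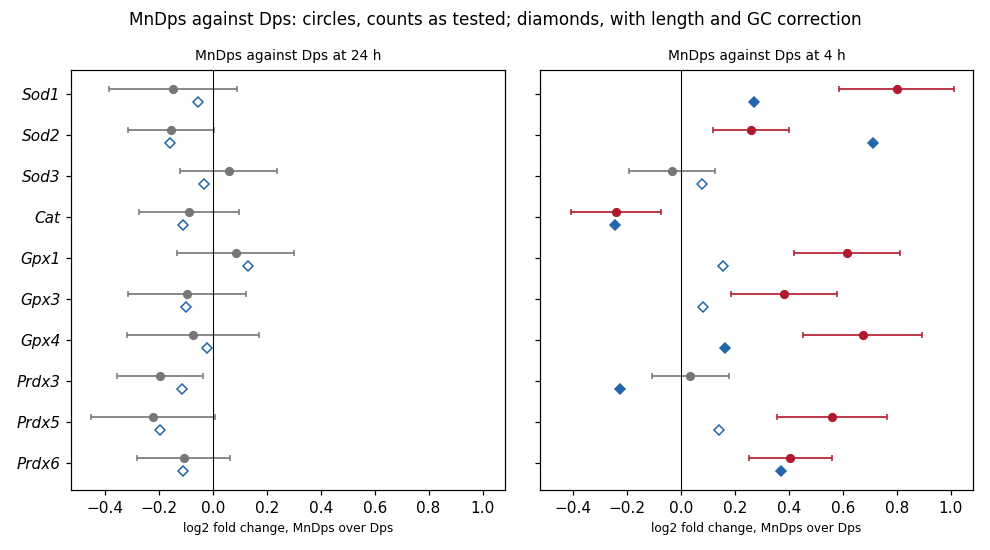
log2 fold change of MnDps over Dps (horizontal axis) for the 10 genes at 24 h (left) and 4 h (right); circles with 95% intervals are the values as tested, red where called, and diamonds are length-corrected, filled where called. No circle is red at 24 h, and 8 are at 4 h, with Sod1 farthest right at 0.80.

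For some of the genes the change with time differed between the proteins, fewer of them length-corrected than as tested (interaction term, below). After Dps, 8 of the 10 were higher at 24 h than at 4 h (all but Cat and Prdx3; background 22%) and none was lower (background 22.6%), also at an unadjusted p under 0.05, by DESeq2 and by limma voom. The changes were 0.61 ± 0.10 for Sod1 (adjusted p = 0.000186), 0.50 ± 0.10 for Prdx5, 0.49 ± 0.10 for Gpx4, and 0.28 to 0.31 for Prdx6, Gpx3, Sod3, Sod2 and Gpx1. Length-corrected, 5 were higher (Sod1 0.24, Sod2 0.64, Sod3 0.42, Prdx5 0.18 and Prdx6 0.37; background 23.7% higher and 14.1% lower). Gpx1 was no longer called without Dps 4 h replicate 2 (0.26) or 3 (0.26) or Dps 24 h replicate 2 (0.21), and Gpx3 without Dps 4 h replicate 2 (0.27) or Dps 24 h replicate 2 (0.22). With the 3 deepest libraries left out, which leaves 1 Dps library at 4 h, 2 of the 10 were called higher (Sod1 and Prdx5; background 9.71% higher and 10.8% lower).

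After MnDps, Sod3 was higher at 24 h than at 4 h (0.38 ± 0.08, adjusted p = 0.00471; length-corrected 0.31; background 10.1%) and Sod1 was lower (-0.34 ± 0.11, adjusted p = 0.0423; length-corrected -0.08; background 11.7%); length-corrected, 9.73% of all genes were higher and 11.2% lower. The Sod3 call was lost without MnDps 24 h replicate 2 (0.25), and the Sod1 call without MnDps 4 h replicate 3 (-0.19), MnDps 24 h replicate 1 (-0.35) or 2 (-0.33). Without MnDps 4 h replicate 1, Gpx4 (-0.34), Prdx5 (-0.34) and Prdx6 (-0.26) were also called lower. The difference between proteins changed from 4 h to 24 h for 7 of the 10 genes in the interaction term, each of them negative (background 13.7% positive and 15.7% negative): Sod1 -0.95, Prdx5 -0.78, Gpx4 -0.75, Gpx1 -0.53, Prdx6 -0.51, Gpx3 -0.48 and Sod2 -0.41. Length-corrected, 4 were called (Sod1, Sod2, Prdx5 and Prdx6; background 4.36% positive and 10.6% negative). Prdx3 (-0.23, 95% interval -0.44 to -0.02) was called only without MnDps 4 h replicate 3 among the fits that left out a library (-0.28). Gpx1 missed the threshold without MnDps 24 h replicate 2 (-0.44), and Gpx3 without MnDps 24 h replicate 1 (-0.46) or 2 (-0.49) or Dps 24 h replicate 2 (-0.38). With the 3 deepest libraries left out, 4 genes were called in the interaction, all negative (background 7.64% positive and 8.22% negative).

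Other genes of superoxide and peroxide removal, such as thioredoxins, glutathione synthesis enzymes and methionine sulfoxide reductases, were counted in the same way. Of 29 listed, 28 had enough counts. After MnDps at 24 h, 1 was higher and 0 lower by edgeR's quasi-likelihood test (4 were lower at an unadjusted p under 0.05, and 0 by DESeq2 and by limma voom), and after Dps at 24 h, 9 were higher and 0 lower (3 lower unadjusted, 0 by DESeq2 and by limma voom). MnDps at 4 h had 14 higher and 3 lower, and Dps at 4 h had 1 higher and 5 lower. With the length correction, MnDps at 4 h had 7 higher and 7 lower, and Dps at 4 h had 1 higher and 9 lower. In the same form, MnDps at 24 h had 1 higher and 0 lower, and Dps at 24 h had 3 higher and 0 lower. The shares of all genes given above for each comparison are the background here. Hmox1, which breaks down heme, rose in both 4 h groups, to 96.8 ± 1.21 CPM after MnDps and 82.0 ± 6.18 CPM after Dps, against 43.0 ± 15.4 CPM in control (SD, n = 3 each; log2 fold changes 1.17 and 0.93, adjusted p by edgeR 0.00193 and 0.0204). Txn1, thioredoxin, the reductant of many peroxiredoxins, reached 502 ± 93.4 CPM after MnDps at 4 h, against 289 ± 21.2 CPM in control, a rise of 0.80 (length-corrected 0.39, adjusted p = 0.000776). Msrb3, a methionine sulfoxide reductase, fell by 0.75 after MnDps at 4 h. After Dps at 4 h the falls were led by Txnrd3, a thioredoxin reductase (-0.45), and Msrb2 (-0.38). At 24 h Gpx8 was higher by 0.52 after MnDps and by 0.56 after Dps. Length-corrected, Gpx8 was higher by 0.45 after MnDps, still called, and by 0.34 after Dps, no longer called (edgeR adjusted p = 0.0532). For MnDps against Dps at 4 h, 17 of the 28 were higher and 1 lower, and 11 higher and 1 lower with the length correction. The glutaredoxins Glrx3 (0.80) and Glrx5 (0.70) led, both still called length-corrected (0.59 and 0.72).

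Of 22 listed enzymes that make superoxide or hydrogen peroxide, 20 had enough counts. MnDps at 4 h had 4 higher and 4 lower, close to the shares of all genes (22.9% and 22.7%), and Dps at 4 h had 3 higher and 2 lower (8.33% and 6.27% of all genes). With the length correction, MnDps at 4 h had 2 higher and 5 lower (15.9% and 21.8% of all genes). Dps at 4 h then had 3 higher and 4 lower (8.25% and 17.5%). Xdh, which makes uric acid and releases both oxidants, was 196 ± 46.5 CPM after MnDps at 4 h and 218 ± 37.5 CPM after Dps at 4 h, against 34.5 ± 4.74 CPM in control (SD, n = 3 each). Its log2 fold changes were 2.50 and 2.66 (edgeR adjusted p = 2.39e-07 and 1.36e-07) and 2.64 and 2.56 length-corrected. Nox4, the NADPH oxidase of kidney tubules, fell to 207 ± 28.5 CPM after MnDps at 4 h and 265 ± 24.0 CPM after Dps at 4 h, against 361 ± 71.2 CPM in control. These were changes of -0.80 and -0.45 before the length correction. At 24 h Nox4 was not called, at -0.37 after MnDps (length-corrected -0.09) and -0.29 after Dps (length-corrected -0.13). At 24 h, 2 of the 20 were higher and 2 lower after MnDps (4.93% and 8.39% of all genes), and 3 higher and 2 lower after Dps (9.64% and 10.4%). With the length correction, 0 were higher and 2 lower after MnDps at 24 h (1.95% and 5.2% of all genes). After Dps at 24 h, 1 was then higher and 2 lower (3.9% and 4.95%). Acox2, a peroxisomal oxidase, was lower after both proteins at 24 h (-0.37 after MnDps and -0.43 after Dps) and stayed called length-corrected. Cyba, a subunit of NADPH oxidases, was higher by 0.59 after MnDps at 4 h, with a length-corrected value of 0.06.

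Gpx1, Gpx3 and Gpx4 carry selenocysteine, and 10 listed genes of selenoprotein synthesis and selenium supply were tested; Selenop appears in the table under its older symbol Sepp1. After MnDps at 4 h, 2 were higher and 2 lower, close to the shares of all genes (22.9% and 22.7%). With the length correction, 1 was higher and 4 lower after MnDps at 4 h (15.9% and 21.8% of all genes). For Dps at 4 h, 0 were then higher and 4 lower (8.25% and 17.5%). Sepsecs, which makes the selenocysteine transfer RNA, fell to 10.4 ± 1.31 CPM after MnDps at 4 h, against 18.9 ± 2.13 CPM in control (-0.87, adjusted p by edgeR = 4.4e-05; length-corrected -0.61), and Sephs1 fell by 0.30. Lrp8, a receptor for selenoprotein P, rose by 1.15 and Pstk by 0.33, both before the length correction. Lrp8 was low, at 1.56 ± 0.44 CPM in control. After Dps at 4 h, none was higher by edgeR, at an unadjusted p under 0.05, by DESeq2 or by limma voom, and 1 was lower (6.27% of all genes), the selenium-binding protein gene Selenbp1 (-0.30). After Dps at 24 h, Selenbp1 was higher by 0.29 (9.64% of all genes were higher) and Sepsecs lower by 0.64 (10.4% were lower). Selenbp1 was no longer called length-corrected (0.08, edgeR adjusted p = 0.522), while Sepsecs stayed called (-0.40). For MnDps at 24 h none was called by edgeR in either direction; 3 were lower at an unadjusted p under 0.05, and 1 by DESeq2 and 1 by limma voom.

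The genes most like the members in pattern were sought for the 3 with the widest range of group means, by the root mean square difference of centred log2 CPM over 14 libraries. For Sod1 they were Hypk and Ubl5 (difference 0.04 each) and H2-Ke6 (0.04), where the median over all genes was 0.40 and the SD of Sod1 itself 0.31. Cstb (0.07), Tssc4 (0.08) and Wdr74 (0.08) were closest to Gpx1, and Ddx49 (0.05), Mrps34 (0.06) and Psmd4 (0.06) to Gpx4. These measures describe likeness in libraries that share the length trend.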

How the data were processed

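Kidney mRNA of 14 libraries was sequenced with a stranded TruSeq kit as 2x75 paired-end reads. Alignment to mm10 used STAR and counting used featureCounts, per the submitters' processing notes; no source used here gives versions, annotation, the strand setting or the treatment of multimapping reads. The authors deposited 1 table of raw counts per gene symbol, not normalised. Total counts per library ran from 15097093 to 42074942. Libraries were grouped by the treatment and time point in the labels; replicate numbers follow accession order and pair nothing. Within groups, libraries varied beyond counting error (chi-square per degree of freedom 7.74 to 29.3).

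Genes with low counts were removed with edgeR's filterByExpr, leaving 14854 of 24421. Counts were scaled by TMM and tested with edgeR's quasi-likelihood test (version 4.0.16 in R 4.3.3, robust), in 1 fit of 5 group means with 9 residual degrees of freedom, and a biological coefficient of variation of 10.7%. Each treated group was set against control, the proteins were set against each other at 24 h and at 4 h, the times were set against each other within a protein, and the interaction was tested, 9 comparisons in all. Benjamini-Hochberg adjustment ran over all genes tested in that comparison, with calls made below 0.05. An SE is the log2 fold change over the square root of F. CPM are counts per 1000000 of the scaled library.

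In the length and GC correction, a per-library trend of expression over transcript length and GC share (splines with 5 degrees of freedom, APPRIS principal transcript of GENCODE on GRCm38, known for 14759 genes) entered the fit as an offset. Other alternatives were median-of-ratios size factors, no filter, at least 1 CPM in at least 3 libraries, DESeq2 (version 1.42.0), limma voom (version 3.58.1) with library weights, only the groups compared, a term for libraries over 30000000 counts, and leaving out each library. The longest transcript in the correction, and leaving out the 3 deepest libraries, were added after seeing the data.

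The members and lists were chosen with earlier results of these data known. All 10 members are named; of the other lists, the called genes with the largest log2 fold changes, at most 4 in each direction per comparison, could be named, and those shown are among them.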

Additional observations from a re-analysis of the deposited data

Results flagged for a closer look

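The difference between MnDps and Dps was not the same at 24 h and at 4 h for 7 of the 10 genes, by the interaction term of the edgeR fit. On the log2 scale, the MnDps minus Dps difference at 24 h, less that at 4 h, was -0.95 for Sod1 (adjusted p = 0.000579), -0.41 for Sod2 (0.00613), -0.53 for Gpx1 (0.00953), -0.48 for Gpx3 (0.0173), -0.75 for Gpx4 (0.00245), -0.78 for Prdx5 (0.00128) and -0.51 for Prdx6 (0.00281). Of all genes tested, 13.7% were called positive and 15.7% negative in this term. Length-corrected, Gpx1 was -0.03 (adjusted p by edgeR 0.91), Gpx4 -0.18 (0.147) and Gpx3 -0.18 (0.327), none of them called. Sod1 (-0.33), Sod2 (-0.87), Prdx5 (-0.33) and Prdx6 (-0.48) stayed called, where 4.36% of all genes were positive and 10.6% negative. Sod1, Prdx5 and Prdx6 were called under 21 of 21 alternatives, Sod2 under 20, Gpx4 under 19, Gpx1 under 17 and Gpx3 under 14. Without MnDps 24 h replicate 2 the Gpx1 value was -0.44 (adjusted p = 0.0667). The Gpx3 value was -0.46 without MnDps 24 h replicate 1, -0.49 without replicate 2 and -0.38 without Dps 24 h replicate 2, and was called in none of these fits.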

How the results depend on the processing

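No paired analysis was possible because the labels give no replicate numbers. Median-of-ratios size factors and the stricter filter changed no call among the 10 genes; of their 41 calls over the 9 comparisons, 16 were lost in at least 1 fit that left out 1 library, and 4 calls were gained in such a fit. A lone MnDps 24 h library, or a lone Dps 4 h library, is assumed to vary like the other groups. The lowest level of any of the 10 genes was 219 CPM (Prdx3), in a library of 23591909 counts.

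With the length and GC correction, genes called over the whole table numbered 1062 for MnDps at 24 h against control (1978 without it), 1315 for Dps at 24 h (2979), 3819 for Dps at 4 h (2168), 3288 for MnDps against Dps at 4 h (6158) and 2216 for the interaction (4368). With the longest transcript, an alternative added after seeing the data, they were 1147, 1448, 3770, 3631 and 2299 in the same order. With a term for libraries over 30000000 counts they were 1033 for MnDps at 24 h, 1637 for Dps at 24 h, 68 for MnDps against Dps at 24 h (121 without it), 3558 for MnDps against Dps at 4 h and 4225 for 24 h against 4 h after Dps (6626). Without those 3 libraries, also added after seeing the data, they were 423 for MnDps at 24 h, 347 for Dps at 24 h, 4374 for MnDps at 4 h (6768), 536 for Dps at 4 h, 11 for MnDps against Dps at 24 h, 2754 for the same at 4 h, 3087 for 24 h against 4 h after Dps and 2391 for the interaction. MnDps against Dps at 24 h had 558 by DESeq2, 716 by limma voom and 727 in a fit of only its groups, and 24 h against 4 h after MnDps had 1878 in such a fit (3242). Leaving out 1 library at a time gave 300 to 2562 for MnDps at 24 h, 843 to 3529 for Dps at 24 h, 1435 to 1849 for Dps at 4 h, 5 to 45 for MnDps against Dps at 24 h, 1336 to 3176 for 24 h against 4 h after MnDps and 2724 to 4598 for the interaction.

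The correction turned the sign of 10 values that were called with or without it. A further 13 values, called in neither fit, turned as well and are not listed. The 10 were, for Dps at 24 h against control, Sod1 (-0.041), Gpx4 (-0.081) and Prdx5 (-0.023). For MnDps at 4 h against control they were Sod1 (-0.013), Gpx3 (-0.074), Gpx4 (-0.011), Prdx3 (-0.26) and Prdx5 (-0.061). Prdx3 for MnDps against Dps at 4 h (-0.23) and Gpx1 for 24 h against 4 h after Dps (-0.072) also turned. With the longest transcript, 6 called values turned. They were Gpx4 (-0.080) for Dps at 24 h, and Gpx3 (-0.11), Gpx4 (-0.014) and Prdx3 (-0.30) for MnDps at 4 h. The others were Prdx3 (-0.27) for MnDps against Dps at 4 h and Gpx1 (-0.061) for 24 h against 4 h after Dps. Another 12 values, called in neither fit, also turned with the longest transcript. The cause was not tested.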
